A study of Gossypium hirsutum with 2 samples.

Results

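Ethylene is made in plants from methionine, which is first activated to S-adenosylmethionine. ACC synthase (ACS) turns S-adenosylmethionine into 1-aminocyclopropane-1-carboxylate (ACC), usually the limiting step, and ACC oxidase (ACO) turns ACC into ethylene. The gas is sensed by membrane receptors that act through the kinase CTR1, the protein EIN2 and the transcription factor EIN3, and ethylene response factors (ERF) are DNA-binding proteins of the AP2/ERF family, many of which act downstream of this route. In leaves ethylene is known for its part in senescence and in the shedding of leaves, and in cotton it is also known to promote the elongation of seed fibres.

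The genes described are those that the array's annotation assigns alone to a probe set and that carry an alias of ACS, ACO or ERF followed by a number. They are 9 loci, read by 10 probe sets, of 520 loci to which a probe set was assigned alone. The loci with an ACO alias, read here as ACC oxidases, are ACO1 at LOC107905899, another ACO1 at LOC107954048, and ACO3 at LOC107915412. The loci with an ACS alias are ACS1 at LOC107950760 and ACS3/ACS6 at LOC107947061. The response factors are ERF3 at LOC107926309, ERF7 at LOC107941184, ERF8 at LOC107922990 and ERF9 at LOC107932376, the last read by 2 probe sets. The alias is the only evidence of function in the sources used here. For LOC107950760 it does not settle the function, because ACS1 has in cotton also been the name of an acyl-CoA synthetase gene, an enzyme of lipid metabolism. LOC107949019, where the gene table sets ACS1 beside ACCS-1, is a different locus, to which the annotation used here assigns no probe set alone.

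The samples were leaves of Upland cotton (Gossypium hirsutum), cultivar Acala 1517-99, grown in the field. The labels call the cultivar drought tolerant and the plants 9 weeks old, an age longer than the time between their planting and harvest dates. The well-watered group was furrow-irrigated and the drought group was not, and the third leaf from the top was taken 9 days after water had been withheld, from 8 plants per replicate and 3 plots per treatment. RNA of each group is represented by 1 array, whether pooled over plots is not stated, and so no test, standard deviation or p-value is possible, and every difference describes these 2 arrays. In whole leaves, fewer cells of a type and less RNA per cell cannot be told apart.

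Of 24132 probe sets on either array 23977 stand for plant transcripts, and the values are MAS5 signals, the linear intensities of Affymetrix software. RCA1, the rubisco activase gene of photosynthetic leaf tissue, had signals of 16617 well watered and 20148 under drought. A probe set was called measurable when the geometric mean of its 2 signals reached 72.3, the median over plant probe sets. The array also carries 52 reporter control probe sets, for genes that untransformed cotton should lack. The brightest on each array read 13616 well watered and 16611 under drought, so it was not at background, and the second brightest read 107 and 186. The 95th percentile of the 52 was 81.4 well watered and 163 under drought. The reporters were thus not level on the arrays. On the drought array 37 of the 52 reporters were higher and 14 lower, with a median log2 difference of 0.66. Of the 52, 29 differed by 2-fold or more. The plant probe sets below the minimum of 72.3 had a median log2 difference of 0.12. The part of the reporter shift in the dim differences below was not tested.

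Of the 10 probe sets with an ACS, ACO or ERF alias 4 were measurable, those of ACS1, ACO3, ERF3 and the ACO1 at LOC107905899. Between the arrays, 0 of the 4 differed by 2-fold or more. Over the 11989 measurable plant probe sets the share past 2-fold was 4.38% in either direction. A count of 0 of 4 is near that share and no trait of these genes. All 4 also lay above the 95th percentile of the reporters on both arrays. Of the 4, 1 was higher and 3 were lower under drought, with a median log2 difference of -0.14, beside -0.01 over all measurable plant probe sets. The other 6 probe sets, of ACS3/ACS6, ERF7, ERF8, ERF9 and the ACO1 at LOC107954048, were below the minimum. The member nearest above the minimum was ERF3, with a mean signal of 202, and the nearest below it was the latter ACO1, with 51.1.

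**Figure D1:**
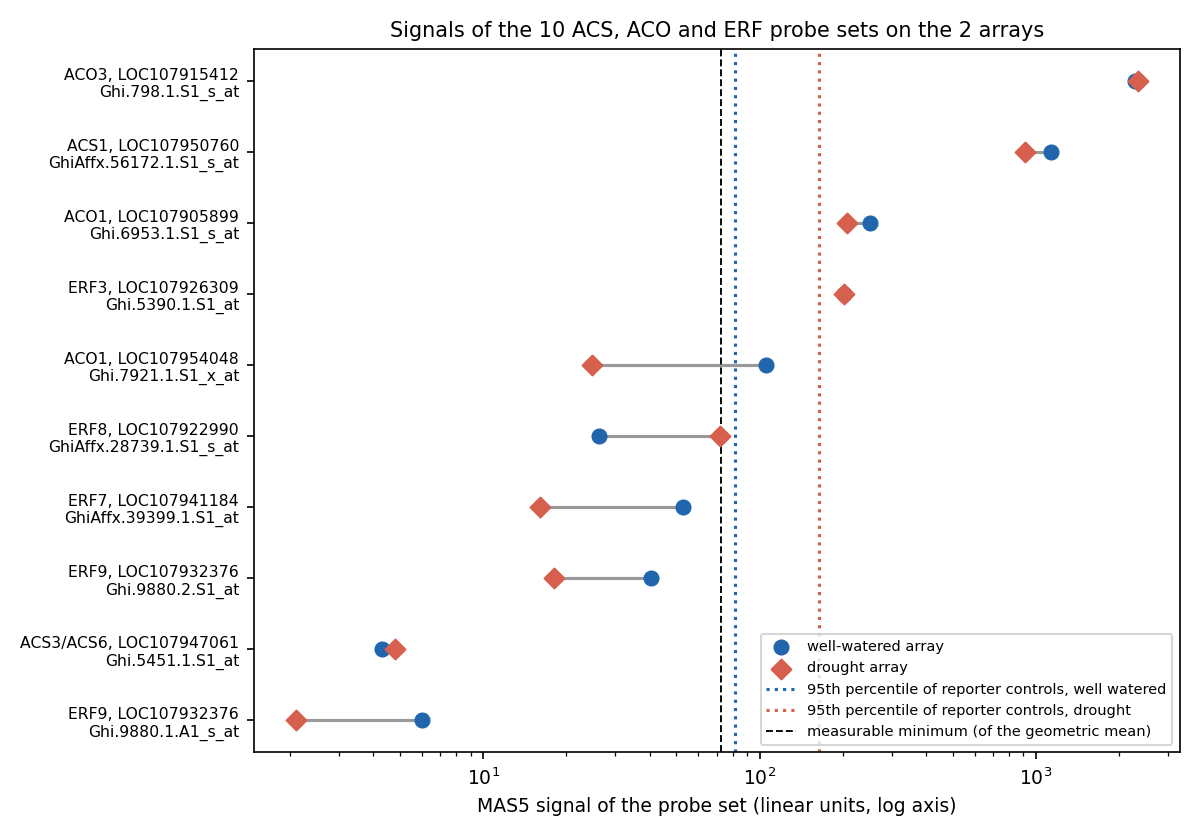
MAS5 signal (log axis) of each of the 10 probe sets well watered (circles) and under drought (diamonds), ordered by mean signal, with 1 array per group and therefore no error bars. The 4 upper probe sets lie right of both reporter limits (dotted, 81.4 and 163) with points close together, and the 6 lower ones lie left of the minimum of 72.3 on at least 1 array with points mostly far apart.

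The ACO aliases would stand for the last step of ethylene synthesis. ACO3 had a signal of 2285 well watered and 2331 under drought. The arrays were thus nearly level for this gene, with a log2 difference of 0.03, and 91.0% of the 500 plant probe sets nearest to it in signal differed by as much or more. The ACO1 at LOC107905899 had a signal of 251 well watered and 207 under drought. It was lower on the drought array by 0.28 on the log2 scale, which is a well-watered signal 1.22 times that under drought. Such a difference was common at that signal: 47.2% of the 500 nearest probe sets differed by as much, and their middle 90% ran from -0.72 to 0.64. Both probe sets end in _s_at, a mark of probes shared by several transcripts, so homoeologous copies from the 2 subgenomes of this tetraploid, or related genes, can add to the signal.

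The other ACO1, at LOC107954048, read 106 well watered and 24.7 under drought. The well-watered signal lay above the 95th percentile of the reporters on that array and the drought signal below it, where 21 of 52 reporters were as bright or brighter. The nominal log2 difference was -2.10. Of the 500 plant probe sets nearest in signal, 3.6% differed by as much, and their middle 90% ran from -1.45 to 1.54. The drought signal is not above background, and the well-watered signal does not reach the drought reporter limit of 163. No size of change is therefore given for this locus. This is the member that the authors' deposited table of 110 probe sets includes, among 88 lower and 22 higher under drought. The authors' deposited table gives signals of 98.5 and 13.6, with a call of present for the well-watered array (detection p = 0.0239, which concerns 1 probe set on 1 array and compares no groups) and of absent for the drought array (p = 0.219). The ID of this probe set ends in _x_at, a mark of probes that can bind unrelated transcripts. The pair of loci share an alias, but whether their differences differ from each other could not be tested with 1 array per group.

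The ACS aliases would stand for the step that makes ACC. ACS1 at LOC107950760 had a signal of 1128 well watered and 910 under drought. It was lower on the drought array, with a log2 difference of -0.31, inside the middle 90% of the 500 probe sets nearest in signal (-0.49 to 0.46), of which 22.2% differed by as much. Of the 4 measurable members it had the difference farthest from 0, and its function is the one that the alias leaves unsettled. ACS3/ACS6 at LOC107947061 had a signal of 4.3 well watered and 4.8 under drought. Those values were lower than 44 and 50 of the 52 reporters, so no level can be given for this gene on either array. Among the members, therefore, no locus whose alias settles it as an ACC synthase was measurable.

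**Figure D2:**
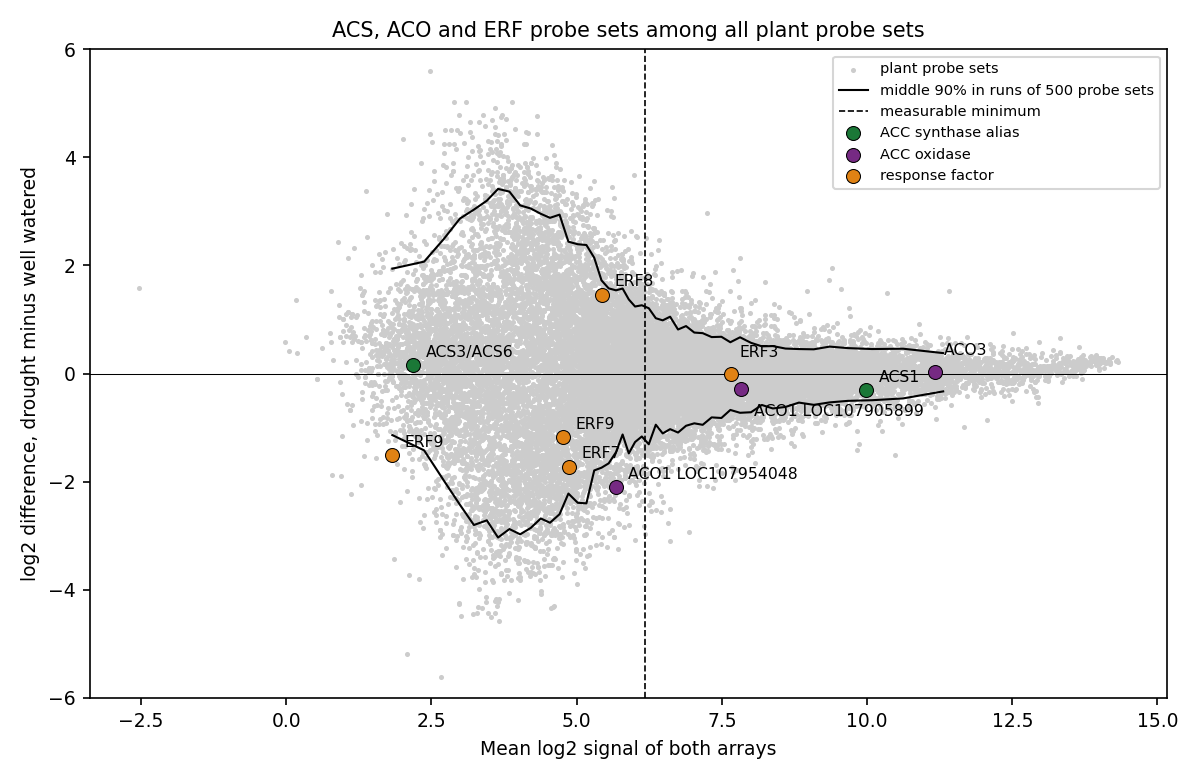
Log2 difference (drought minus well watered) against the mean log2 signal of both arrays for the 23977 plant probe sets (grey) and the 10 ACS, ACO and ERF probe sets (coloured by alias); black lines bound the middle 90% in runs of 500 probe sets, without the brightest remainder. The spread of all probe sets widens left of the measurable minimum (dashed), where the 6 dim members lie, with nominal values from -2.10 to 1.46.

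Of the response factors, ERF3 was measurable. Its signal was 202.1 well watered and 201.5 under drought, a log2 difference of -0.0043, and 99.4% of the 500 nearest probe sets differed by as much or more. Its ID has no mark of shared probes, which sets it apart from the other 3 measurable members. ERF7, ERF8 and ERF9 were dim, each below the 95th percentile of the reporters on both arrays. ERF7 read 52.9 well watered and 16.0 under drought, a nominal log2 difference of -1.73. ERF8 went the other way, at 26.2 and 71.9, a nominal difference of 1.46. In the runs of 500 probe sets nearest to each, 27.8% differed by as much as ERF7 and 14.2% by as much as ERF8.

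ERF9 was read by a pair of probe sets of opposite orientation, as the S (sense) or A (antisense) in their IDs marks it. The sense probe set gave 40.6 well watered and 18.0 under drought (-1.17), and the antisense probe set gave 6.0 and 2.1 (-1.51). Another antisense probe set with the same cluster number and no assigned gene gave 51.3 and 9.2 (-2.48). All 3 were lower on the drought array, as were 5494 of the 11988 plant probe sets below the minimum, and all 3 lay below the 95th percentile of the reporters on both arrays. Among the 500 probe sets nearest in signal, 51.2% differed by as much as the sense and 11.6% by as much as the antisense ERF9 probe set, and the latter was dimmer than all 52 reporters on the drought array.

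Of the 6 probe sets below the minimum 5 thus passed 2-fold nominally, 4 lower and 1 higher under drought. They read 5 loci, since ERF9 has a pair, and by locus 4 of 5 passed, 3 lower and 1 higher. Among all 11988 plant probe sets below the minimum, 44.4% passed 2-fold, with 23.2% higher and 21.1% lower. The share varied with signal. Among the 500 probe sets nearest in signal it was 57.2% for sense ERF9 and 53.0% for ERF7. It was 32.8% for ERF8, 27.2% for antisense ERF9 and 24.4% for the ACO1 at LOC107954048. That ACO1 and antisense ERF9 lay outside the middle 90% of their nearest probe sets (lower limits -1.45 and -1.10). ERF7, ERF8 and sense ERF9 lay inside it. A 2-fold difference was thus common below the minimum, and the counts are given as a description without a call. The median log2 difference of the 6 was -1.34, beside 0.12 over all plant probe sets below the minimum. That median counts both ERF9 probe sets, and 5 of the 6 lay below the reporter limit on both arrays, so it is no call either.

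The 4 measurable members were then set on other scales. The 18 hybridisation spike-in probe sets are controls of the hybridisation step. Against them the median of all plant probe sets itself shifted by -0.26. All 4 members were then lower under drought (ACS1 -0.57, ACO1 at LOC107905899 -0.54, ERF3 -0.26, ACO3 -0.23), as were 9218 of the 11989 measurable plant probe sets. Relative to that shift the differences are those given above. ACS1 and the ACO1 at LOC107905899 were lower on all 6 scales, from -0.57 to -0.30 and from -0.54 to -0.23. For a probe set lower as deposited, median centring, the spike-ins and the pseudocount could not turn the direction. The first and second shift every probe set lower, and the last keeps the sign. Quantile normalization and intensity-dependent centring were not bound to keep it, but they remove only differences shared by many probe sets. They gave -0.32 and -0.31 for ACS1 and -0.23 and -0.24 for that ACO1, near the values as deposited. All 6 scales rest on the same 2 arrays, so their shared direction is no further evidence. ACO3 and ERF3 were near level on the 5 scales without that shift, with no settled direction: ACO3 lay between -0.00012 and 0.03, and ERF3 between -0.03 and 0.06. With a pseudocount of 26.4, ACO1 at LOC107954048 stood at -1.37, the sense and antisense probe sets of ERF9 at -0.59 and -0.19, ERF7 at -0.90 and ERF8 at 0.90, so that 1 of the 5 dim probe sets nominally past 2-fold stayed past it there.

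**Figure D3:**
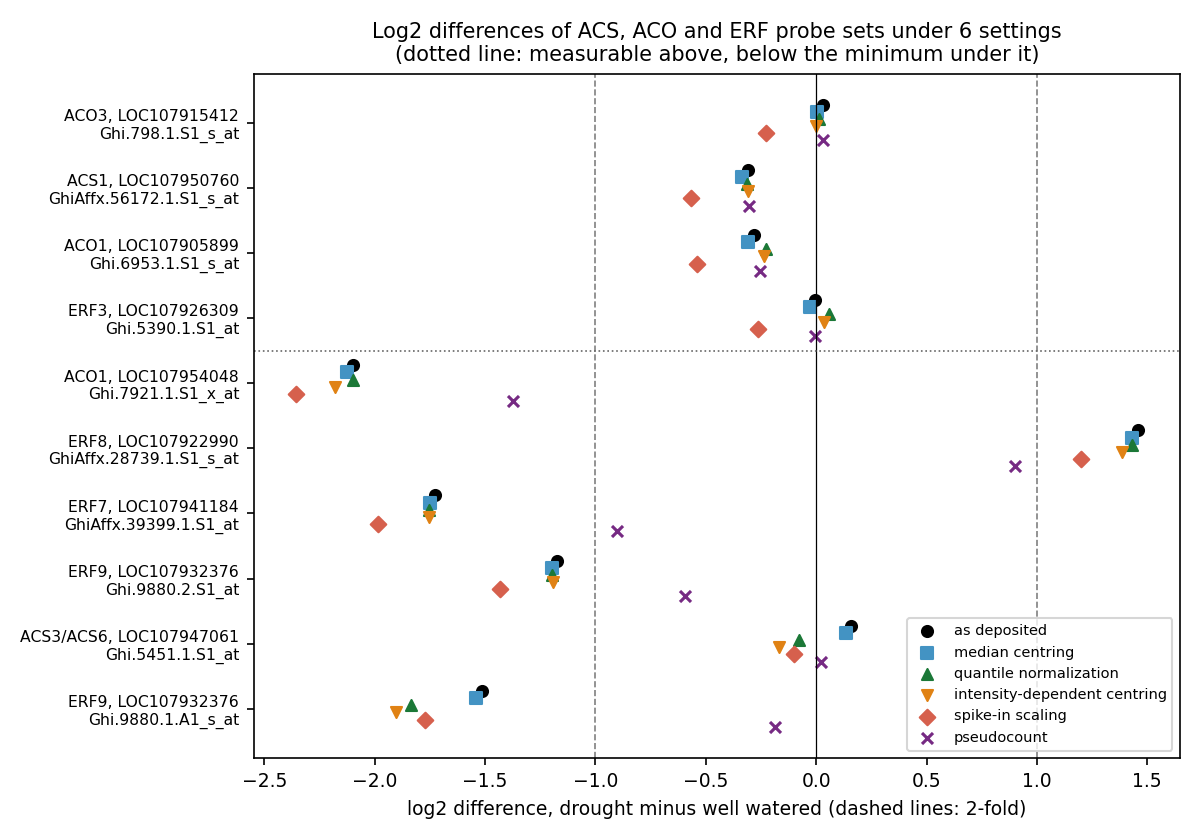
Log2 difference (drought minus well watered) of the 10 probe sets under 6 settings, each marked by its own symbol, with dashed lines at 2-fold and a dotted line between measurable and dim probe sets. The 4 measurable probe sets stay between -0.57 and 0.06 throughout, and the pseudocount (crosses) moves 5 of the 6 dim ones toward 0 by much more than the other scales do.

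Other genes were taken from a list of aliases for S-adenosylmethionine synthesis, further ACC enzymes, receptors, CTR1, EIN2, EIN3 and its partners, and other AP2/ERF factors. The last need not belong to the ethylene route. The list matched 9 probe sets of 5 loci. Of these probe sets 4 were measurable, 1 for S-adenosylmethionine supply and 3 for AP2/ERF factors. Of the 4, 0 passed 2-fold, which is near the background share of 4.38% and no trait of the list. Of the 4, 1 was higher and 3 were lower, with a median log2 difference of -0.24, beside -0.01 over all measurable plant probe sets. Receptors, CTR1, EIN2, EIN3 and the EIN3-binding F-box proteins matched 0 probe sets. An alias was present for 324 of the 23977 plant probe sets, so an empty match does not mean an absent signal.

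MAT/SAMS at LOC107910531, an S-adenosylmethionine synthetase gene that supplies the substrate of ACC synthase, read 2904 well watered and 2472 under drought (log2 difference -0.23). Of the AP2/ERF-type factors, CBF15/DBP2 at LOC107957738 read 1090 and 847 (-0.36), and CBF20/DREB1C at LOC107898106 read 509 and 431 (-0.24). Factors of the DREB/CBF branch bind the dehydration-responsive element and are known for responses to drought and cold more than to ethylene. CBF17 at LOC107913841 was nearly level on its bright probe set, at 2759 and 2828 (0.04), while a dim probe set of the locus gave 77.4 and 30.2 (-1.36). Among the 500 probe sets nearest in signal, 29.8% differed by as much as MAT/SAMS. For CBF15/DBP2 the share was 17.8% and for CBF20/DREB1C it was 43.8%. Each of these genes lay inside the middle 90% of its nearest probe sets. MAT/SAMS, CBF15/DBP2 and CBF20/DREB1C were lower on all 6 scales, which rest on the same 2 arrays and so are no further evidence of direction. The bright CBF17 probe set was near level on the 5 scales without the spike-in shift. Each of the 4 bright probe sets lay above the reporter limit on both arrays.

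The locus LOC107923295 carries the alias ACS with no number and so is outside the members. As with ACS1, the alias alone does not settle whether it is an ACC synthase. It was read by 4 probe sets, all below the minimum. The brightest, antisense, gave 41.5 well watered and 109 under drought (1.39), with a mean signal of 67.3, just under the minimum of 72.3. A second antisense probe set gave 9.8 and 22.9 (1.22), and the sense probe sets gave 11.5 and 15.2 (0.40) and 10.5 and 14.3 (0.45). Together with an unassigned antisense probe set of the same cluster number (6.4 and 24.8, a difference of 1.95), 5 of 5 were higher on the drought array and 5 of 5 lay under the reporter limit on both arrays. These probe sets share a locus or cluster, and 6454 of the 11988 plant probe sets below the minimum were higher. The reporters moved the same way (37 of 52 higher), and their part in this was not tested.

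**Figure D4:**
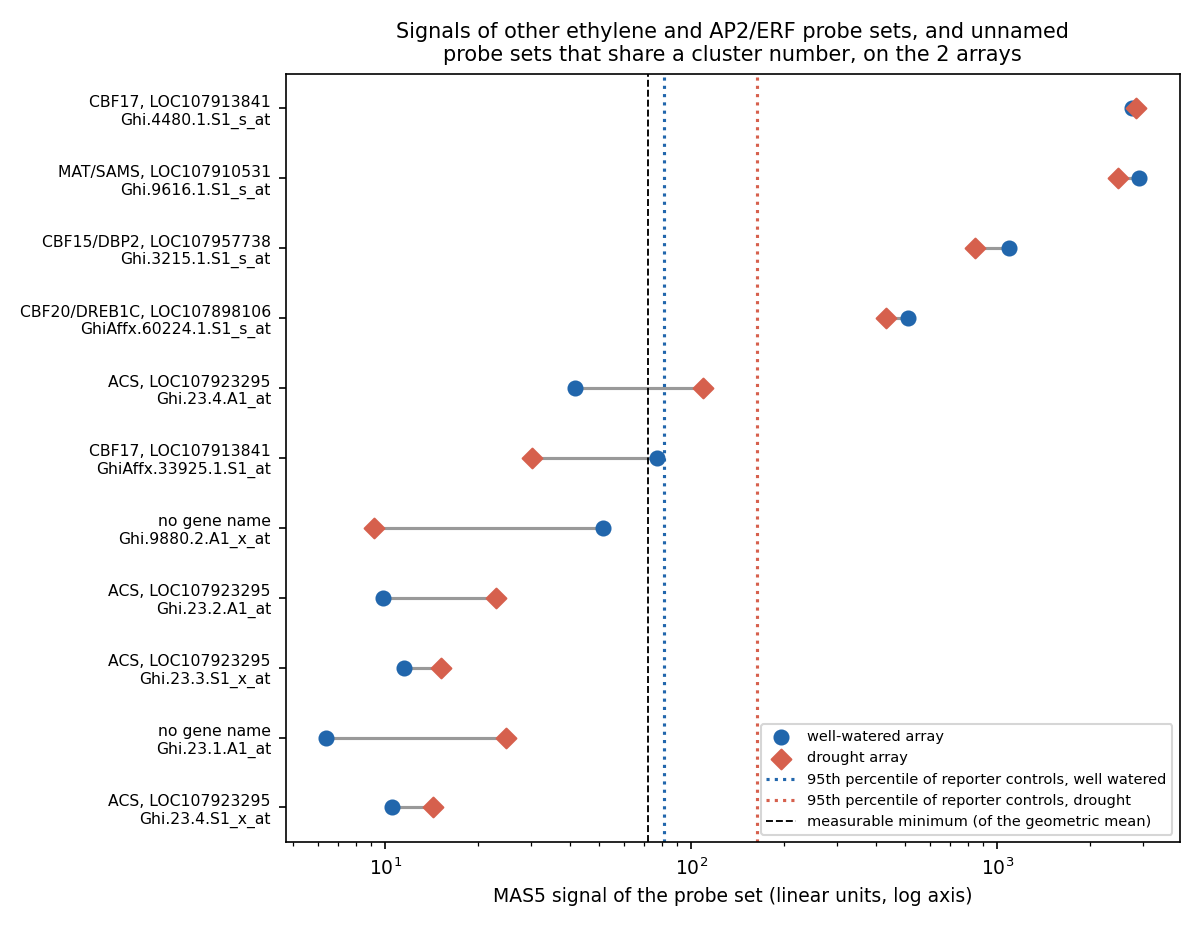
MAS5 signal (log axis) on the well-watered array (circles) and the drought array (diamonds) for the 9 probe sets of the wider list and 2 unassigned probe sets that share a cluster number with ACS or ERF9. The 4 bright probe sets (CBF17, MAT/SAMS, CBF15/DBP2, CBF20/DREB1C) have nearly equal signals, and the ACS probe sets lie left of the drought reporter limit of 163 with the drought point on the right.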

How the data were processed

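Biotin-labelled cRNA made from 5.0 µg total RNA was hybridised to Affymetrix cotton arrays, per the labels' protocols. The deposited values are linear MAS5 signal intensities, for which the submitters' processing notes name GCOS and MAS5, with versions not stated there. The deposited list of 110 probe sets also holds detection calls and a detection p-value for each array, per the file headers, and its rule of choice is not stated. Samples were grouped by title.

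Log2(drought) minus log2(well watered) was computed with no pseudocount, over all plant probe sets, with Python 3.11.15, pandas 2.3.3 and statsmodels 0.14.6. The 155 control and reporter probe sets were left out. A difference was counted at 2-fold or more, with no test. The 500 probe sets nearest in mean log2 signal give the spread across probe sets, which is not replicate error and no probability. The number of arrays limits the precision.

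Names came from the platform annotation (697 probe sets with 1 gene, 46 with several, 23234 with none), joined by gene identifier to the gene table of Gossypium_hirsutum_v2.1, where all 697 were found. No coordinates or sequences were used. The rule names every member probe set, and every measurable probe set of the wider list; dim ones of that list and unassigned ones of the same cluster were named after their values were seen. Members and lists were chosen with earlier results of these data known. The calculation was tested on simulated data. Alternatives were median, quantile and intensity-dependent centring (lowess span 0.3), spike-in scaling, a pseudocount of 26.4 (the 25th percentile of plant signals), other filters and folds, 1 probe set per locus, and the signals of the deposited list.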

Additional observations from a re-analysis of the deposited data

How the results depend on the processing

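The count of measurable ACS, ACO and ERF probe sets past 2-fold was 0 of 4 with median, quantile, intensity-dependent and spike-in scaling and at 1.5-fold. It was also 0 with the pseudocount, at 3-fold, under the stricter filters, without _x_at or _s_at probe sets and with 1 probe set per locus. These shrink every difference, raise the bar or keep a subset, so they had to give 0 and show nothing about stability. With no filter it was 5 of 10 probe sets, beside 5842 of all 23977 plant probe sets, and for the wider list it was 3 of 9, against 0 under the other settings run; these are the dim probe sets. Without probe sets ending in _x_at or _s_at the wider list had none left, so that no value could be given. For the 19 probe sets of both, 6 values under other settings moved by more than the spread of the 500 probe sets nearest in signal (from the middle to the edge of their central 68%) and 90 did not. The 6 were the spike-in values of ACO3, ACS1, MAT/SAMS, CBF15/DBP2 and the bright CBF17 probe set, all measurable, and the pseudocount value of antisense ERF9. Dim probe sets have a wide spread, so their values rarely counted as moved. ACO1 at LOC107954048 gave -2.86 from the signals of the authors' deposited list, -2.10 in the value table and -1.37 with the pseudocount. No paired analysis was possible because each group has 1 array, and for the same reason no replicate could be left out. Signal over background limits ACS3/ACS6, ERF7, ERF8 and ERF9, for which neither array rose above the reporter limit.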

Other observations

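Genes beside the ethylene route that the alias list did not hold were looked up after the values above had been seen. SAMDC at LOC107887408, the S-adenosylmethionine decarboxylase gene that draws the same substrate into polyamines, read 11909 well watered and 12491 under drought, a log2 difference of 0.07 that was -0.19 against the spike-ins and -0.06 after quantile normalization. DBP3b at LOC107890730, another gene named as a DRE-binding protein, was below the measurable minimum at 48.7 and 73.3 (0.59). RAV/RAV1 at LOC107946446, an alias of factors that join an AP2 to a B3 domain, was read by 3 probe sets below the minimum. The sense probe sets gave 81.3 and 52.9 (-0.62) and 18.5 and 12.0 (also -0.62), and the antisense probe set went the other way, at 14.2 and 36.1 (1.35).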
